A study of Mus musculus with 9 samples.

Results

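The genes described here are 9 that encode peptide hormones of the pancreatic islet and the gut: Ins1, Ins2, Gcg, Sst, Ppy, Pyy, Ghrl, Iapp and Gip. They were taken by their symbols from a table of 18541 genes with 1 Agilent probe each, and all 9 symbols were found once. Levels were measured on 1-colour Agilent microarrays in dorsal pancreatic epithelium that had been microdissected by hand from mouse embryos at e12.5, and are normalized intensities on a linear scale. The study has 9 samples in 3 genotype groups of 3, littermates by the series text, and each RNA sample came from 3 dorsal pancreata. The group labelled Sox9het is Sox9fl/+; Foxa3-Cre, in which the Cre transgene driven by Foxa3 deletes 1 Sox9 allele. The group labelled Pdx1het is Pdx1-/+, with the Pdx1LacZko allele in place of 1 normal copy of Pdx1, and its label names no Cre. The group labelled Sox9Pdx1D-het, the double heterozygotes, is Sox9fl/+; Foxa3-Cre; Pdx1-/+. Every group thus lacks at least 1 allele of Sox9 or Pdx1, and no wild-type sample enters the comparisons. The title of 1 double-heterozygote sample, DH3&4, names both replicate 3 and replicate 4, and it is called replicate 3.

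Peptide hormones are made as longer precursors that are sorted into secretory granules and cut there by prohormone convertases. In the adult islet, beta cells make insulin and amylin, alpha cells glucagon, delta cells somatostatin, PP cells pancreatic polypeptide and epsilon cells ghrelin, while K cells of the intestine make Gip and L cells Pyy. The endocrine cells of the embryonic pancreas arise from progenitors that switch on Neurog3, and Pyy is known in the earliest of them. The homeodomain factor Pdx1 is known to bind TAAT-containing elements of the insulin, Iapp and Sst promoters in islet cells, and to be needed by the Gip cells of the mouse intestine.

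The results turn on Gip and Iapp, so the 250 bases before their annotated transcript starts are shown, with those of Ins1, a classical Pdx1 target, for comparison. The sequences are from RefSeq on build GRCm38.p6, read 5′ to 3′ on the strand of the gene, which is the plus strand for all 3. The Gip window lies at chr11:96024295-96024544, the Iapp window at chr6:142298175-142298424 and the Ins1 window at chr19:52264047-52264296. Capitals mark TAAT or its reverse complement ATTA, the core letters bound by many homeodomain proteins.
Gip: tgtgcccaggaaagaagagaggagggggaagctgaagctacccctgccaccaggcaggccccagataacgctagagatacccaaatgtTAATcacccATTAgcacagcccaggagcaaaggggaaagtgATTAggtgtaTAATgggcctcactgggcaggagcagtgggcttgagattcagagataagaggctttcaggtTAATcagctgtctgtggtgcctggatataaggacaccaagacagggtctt
Iapp: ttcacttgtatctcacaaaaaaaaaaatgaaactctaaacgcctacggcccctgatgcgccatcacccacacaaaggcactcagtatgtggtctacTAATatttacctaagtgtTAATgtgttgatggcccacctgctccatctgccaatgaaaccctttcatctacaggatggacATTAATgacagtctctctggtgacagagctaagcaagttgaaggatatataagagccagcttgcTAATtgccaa
Ins1: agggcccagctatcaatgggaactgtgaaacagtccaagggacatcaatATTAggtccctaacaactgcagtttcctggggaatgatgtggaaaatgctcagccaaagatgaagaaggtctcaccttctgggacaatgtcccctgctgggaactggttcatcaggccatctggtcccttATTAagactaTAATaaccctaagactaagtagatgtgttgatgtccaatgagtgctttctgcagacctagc

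The Gip window and the Iapp window each held 5 TAAT matches on either strand, where 2 of the 5 in Iapp overlap each other. The Ins1 window held 3, the Gcg window 2 and the Sst window 1. Of all 32851 RefSeq windows of this length, 54.9% held at least 1 match, 17.3% at least 3 and 5.54% at least 5. The GATA core GATAA was found 2 times before Gip, which 4.28% of windows reach, and in none of the other windows of the set. The SOX core ACAAT was found once each before Ins1, Gcg and Sst, and 27.7% of all windows hold it. E-box letters (CANNTG, bound by helix-loop-helix factors such as Neurog3 and Neurod1) stood 2 times before Gip, 3 times before Iapp and 2 times before Ins1, and 66.2% of all windows hold at least 1. Of the 9 genes, 8 had a window in the RefSeq table, and Ins2 had none. The windows of Ppy, Pyy and Ghrl held no TAAT, ACAAT or GATAA. These are matches of letters and no measured sites.

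**Figure D1:**
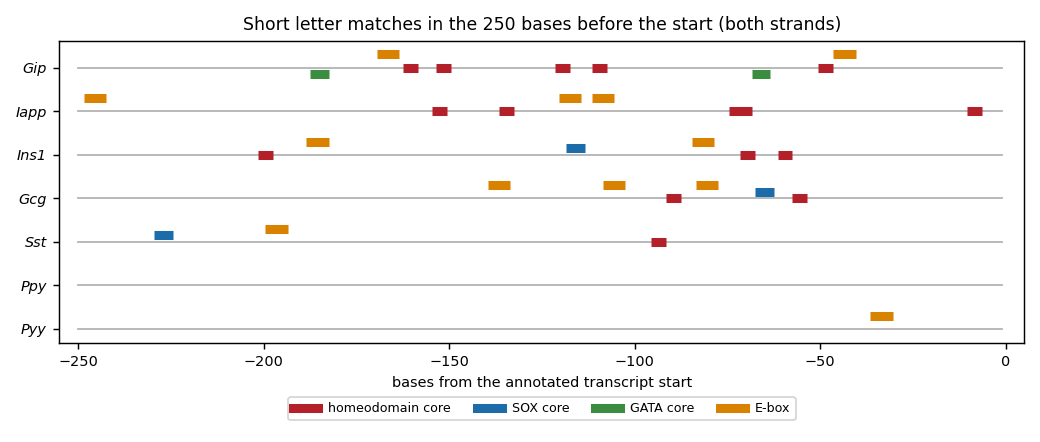
Positions of 4 short letter patterns, searched on both strands, in the 250 bases before the first annotated start of 7 hormone genes; the horizontal axis is the distance from that start in bases and each block is 1 match. Gip and Iapp hold 5 homeodomain cores each, and Ppy and Pyy hold none.

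Gip, the precursor of the incretin hormone glucose-dependent insulinotropic peptide, showed the clearest difference among the 9 genes. Its normalized intensity was 442, 416 and 385 in the Sox9 heterozygotes, 121, 96 and 104 in the Pdx1 heterozygotes, and 109, 89 and 101 in the double heterozygotes. All 3 Sox9 heterozygous samples lay above all 6 samples that carry the Pdx1-/+ allele, and the values of the latter 2 groups were interleaved. The group means were 414.3 ± 28.5 (SD, n = 3), 107.0 ± 12.8 (SD, n = 3) and 99.7 ± 10.1 (SD, n = 3).

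In the double heterozygotes Gip fell against the Sox9 heterozygotes by a log2 difference of -2.06 ± 0.11 (SE), a level 4.16 times lower with a 95% interval of 3.51 to 4.94 (limma, adjusted p = 1.7e-04 over all 18541 genes, lower in 3 of 3 samples). Gip was 3.88 times higher in the Sox9 than in the Pdx1 heterozygotes, with an interval of 3.27 to 4.61 (limma, adjusted p = 2.68e-04, higher in 3 of 3 samples). In both comparisons its unadjusted p had rank 1 of the 18541 genes. Between the double and the Pdx1 heterozygotes its log2 difference was -0.10, with an interval from -0.35 to 0.15 (limma, adjusted p = 0.633). The log2 difference of Sox9 over Pdx1 heterozygotes is also the amount by which the other two differences are apart, so it tests whether the drop against the Sox9 heterozygotes exceeded that against the Pdx1 heterozygotes.

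The low Gip values lay near the bottom of the arrays. Among all probes of an array, Gip stood at percentile 51.7 to 54.0 in the Sox9 heterozygotes, at 14.9 to 26.2 in the Pdx1 heterozygotes and at 11.3 to 21.5 in the double heterozygotes. Detection calls were not used here, so how much of an intensity near 100 is background is not known, and the fold is one of intensities. In RNA of pooled tissue, fewer cells of a type and less RNA per cell cannot be told apart, for Gip and for the genes below.

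**Figure D2:**
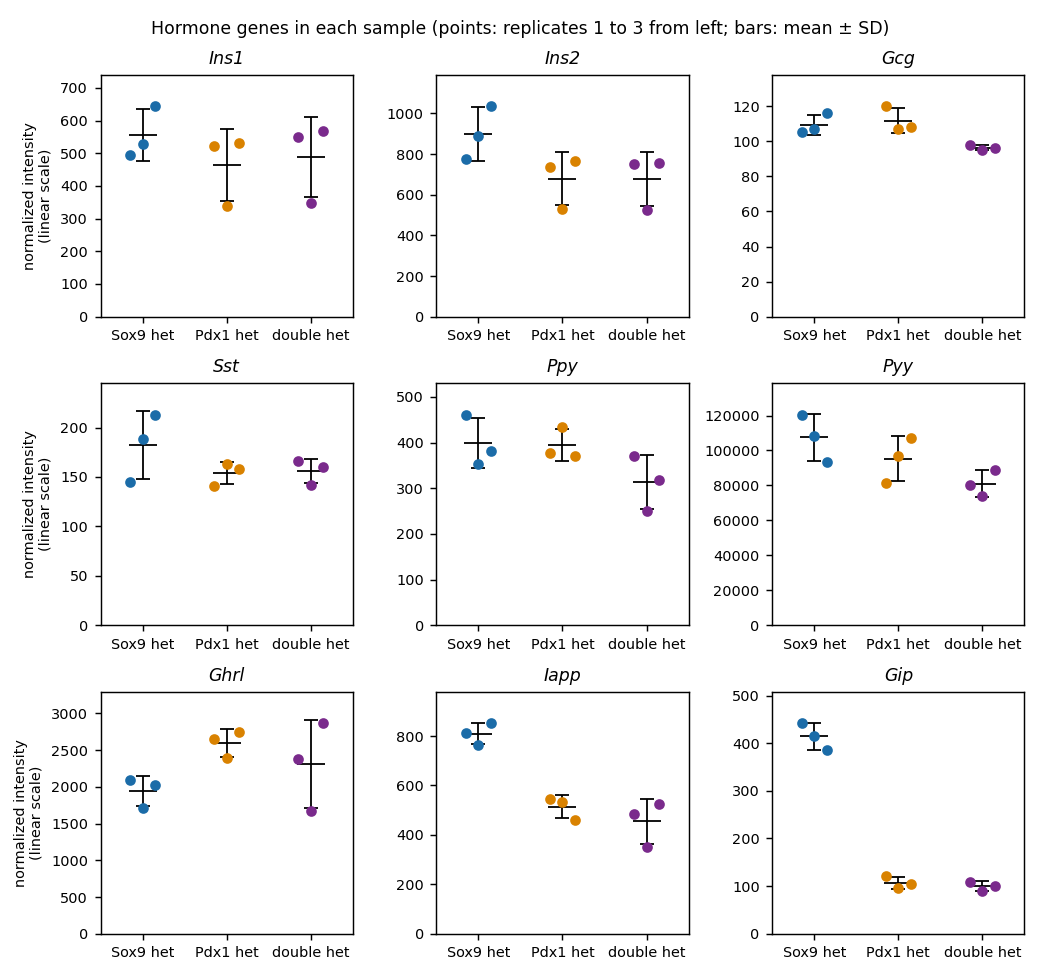
Normalized intensity (linear axis from 0) of the 9 hormone genes in the 9 samples, with a panel for each gene; points are replicates 1 to 3 from left to right in each group and bars are the mean ± SD. Gip in the 3 Sox9 heterozygous samples sits between 385 and 442 and in the other 6 between 89 and 121, while Ins1 and Sst overlap between all groups.

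Among the hormone genes Iapp, which encodes amylin, a peptide packed with insulin in beta-cell granules, came next in its unadjusted p. Its intensity was 814, 764 and 852 in the Sox9 heterozygotes, 547, 533 and 460 in the Pdx1 heterozygotes, and 485, 352 and 526 in the double heterozygotes. The Sox9 heterozygotes again lay above the other 6 samples without overlap, and the other two groups overlapped. The log2 difference of double over Sox9 heterozygotes was -0.85 ± 0.14 (SE), with an interval from -1.17 to -0.53, and missed the threshold of 0.05 (limma, adjusted p = 0.0533). That of Sox9 over Pdx1 heterozygotes was 0.66 ± 0.14 (SE; limma, adjusted p = 0.191), and that of double over Pdx1 heterozygotes -0.19 ± 0.14 (SE; limma, adjusted p = 0.484).

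The Iapp call depended on the test. With the dimmest 20% of probes left out the adjusted p for double over Sox9 heterozygotes was 0.0321, without double-heterozygote replicate 2 it was 0.0466, and in the authors' deposited table the FDR was 2.52e-05. In the fit of only these 2 groups it was 0.137, and when each other sample was left out in turn it lay between 0.0547 and 0.18, the highest without Sox9-heterozygote replicate 2. Across all alternatives the log2 difference stayed between -0.97 and -0.68.

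The mouse has a pair of insulin genes, Ins1 and Ins2, with closely related sequences. Ins2 had intensities of 774, 888 and 1036 in the Sox9 heterozygotes, 738, 530 and 768 in the Pdx1 heterozygotes, and 753, 524 and 755 in the double heterozygotes. The Sox9 heterozygotes did not overlap either other group, with a gap from 774 down to 768 at its narrowest. The log2 difference of double over Sox9 heterozygotes was -0.42 ± 0.19 (SE) and did not pass (limma, adjusted p = 0.183), and that of Sox9 over Pdx1 heterozygotes was 0.42 ± 0.19 (SE; limma, adjusted p = 0.803). Double and Pdx1 heterozygotes had nearly equal Ins2 means, 677.3 ± 133 and 678.7 ± 130 (SD, n = 3 each), with an interval of the log2 difference from -0.42 to 0.42.

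Ins1 stood at 493, 529 and 644 in the Sox9 heterozygotes, 523, 338 and 532 in the Pdx1 heterozygotes, and 550, 347 and 568 in the double heterozygotes. All 3 groups overlapped. Its log2 difference of double over Sox9 heterozygotes was -0.21, with an interval from -0.72 to 0.30 (limma, adjusted p = 0.546). Across the 9 samples the log2 levels of Ins1 and Ins2 had a Pearson r of 0.94, and both were lowest in replicate 2 of the Pdx1 and of the double heterozygotes. The probe sequences were not used here, so whether either probe also binds the other transcript is not known.

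The other hormones belong to other cell types of the islet and the gut. Ppy, which encodes pancreatic polypeptide, had 461, 354 and 382 in the Sox9 heterozygotes, 378, 434 and 371 in the Pdx1 heterozygotes, and 370, 251 and 319 in the double heterozygotes. The double heterozygotes lay below the Pdx1 heterozygotes without overlap, by 1 unit of intensity at the narrowest, and overlapped the Sox9 heterozygotes. The log2 differences were -0.36 ± 0.15 (SE) against the Sox9 and -0.35 ± 0.15 (SE) against the Pdx1 heterozygotes, and neither passed (limma, adjusted p = 0.166 and 0.302).

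Pyy, the gene of peptide YY and the direct chromosomal neighbour of Ppy on chromosome 11, was among the brightest probes of the arrays, at percentile 99.5 to 99.8. Its intensity was 120513, 108428 and 93615 in the Sox9 heterozygotes, 81550, 97062 and 107050 in the Pdx1 heterozygotes, and 80408, 73994 and 88876 in the double heterozygotes. The double heterozygotes lay below the Sox9 heterozygotes without overlap, and the Pdx1 heterozygotes overlapped both. The log2 difference of double over Sox9 heterozygotes was -0.40 ± 0.13 (SE; limma, adjusted p = 0.115) and that of double over Pdx1 heterozygotes -0.23 ± 0.13 (SE; limma, adjusted p = 0.387). Saturation flags were not used here.

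Ghrl, the ghrelin gene, was the only 1 of the 9 with a higher mean in the double than in the Sox9 heterozygotes. It had 2087, 1710 and 2030 in the Sox9 heterozygotes, 2654, 2392 and 2751 in the Pdx1 heterozygotes, and 2383, 1676 and 2867 in the double heterozygotes. The Sox9 heterozygotes lay below the Pdx1 heterozygotes without overlap, whereas the double heterozygotes spanned both. The log2 difference of Sox9 over Pdx1 heterozygotes was -0.42 ± 0.17 (SE; limma, adjusted p = 0.736), and that of double over Sox9 heterozygotes 0.22 ± 0.17 (SE; limma, adjusted p = 0.411).

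Sst, the somatostatin gene, stood at 145, 188 and 213 in the Sox9 heterozygotes, 141, 163 and 158 in the Pdx1 heterozygotes, and 166, 142 and 160 in the double heterozygotes. The groups overlapped in every comparison, with log2 differences of -0.21, 0.02 and 0.23 for double over Sox9, double over Pdx1 and Sox9 over Pdx1 heterozygotes. Gcg, the gene of glucagon and the glucagon-like peptides, had 105, 107 and 116 in the Sox9 heterozygotes, 120, 107 and 108 in the Pdx1 heterozygotes, and 98, 95 and 96 in the double heterozygotes.

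The double heterozygotes lay below both other groups for Gcg without overlap, and all 9 values were dim, at percentile 14.7 to 26.0 of their arrays. The log2 differences were -0.18 ± 0.07 (SE) against the Sox9 and -0.21 ± 0.07 (SE) against the Pdx1 heterozygotes (limma, adjusted p = 0.162 and 0.242). The deposited table ties the Gcg probe to a full-length cDNA clone and to no RefSeq transcript, unlike the probes of the other 8 genes. The sources used here do not say whether it reads the main Gcg transcript.

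As a set, 1 of the 9 genes (Gip) fell in the double against the Sox9 heterozygotes and 0 rose, against 0.216% of all genes that fell and 0.0917% that rose in the same limma fit (0.307% in all, adjusted p under 0.05). At an unadjusted p under 0.05 were 5 of the 9 (Gcg, Ppy, Pyy, Iapp and Gip), where 27.4% of all genes were. The groups did not overlap, with the double heterozygotes lower, for 5 of the 9 (Ins2, Gcg, Pyy, Iapp and Gip), while this held for 16.7% of all genes. For 0 of the 9 they were higher without overlap, against 18.6% of all genes, so that the groups were separate in either direction for 35.3% of all genes. The median log2 difference of the 9 was -0.36, and 8 were below 0. By the FDR of the authors' deposited table, 5 of the 9 were lower (Ins2, Ppy, Pyy, Iapp and Gip) and 0 higher, against 11.1% and 12% of all genes. The authors' deposited table calls 4292 genes (23.1%) in this comparison, where the limma fit calls 57, although its log2 ratios equal those computed here within 4.2e-08.

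Against the Pdx1 heterozygotes 0 of the 9 genes passed in limma (0.108% of all genes did, 0.0378% higher and 0.0701% lower). At an unadjusted p under 0.05 were 2 of the 9 (Gcg and Ppy), where 16.1% of all genes were. The FDR in the authors' deposited file calls 1 of the 9, Gcg, lower (FDR 0.0415) and 0 higher, against 8.94% and 8.31% of all genes, or 17.3% in either direction. The double heterozygotes lay below without overlap for 2 of the 9, Gcg and Ppy, and above for 0, against 11.4% and 11.6% of all genes (22.9% in all). The median log2 difference was -0.19. Both comparisons share the double-heterozygote samples, so their signs are not independent.

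Between the single heterozygotes, 1 of the 9 (Gip) was higher in the Sox9 heterozygotes and 0 lower, against 0.151% and 0.0809% of all genes, together 0.232% (limma, adjusted p under 0.05). At an unadjusted p under 0.05 were 3 of the 9 (Ghrl, Iapp and Gip), where 6.29% of all genes were. The Sox9 heterozygotes were higher without overlap for 3 of the 9 (Ins2, Iapp and Gip; 6.54% of all genes) and lower for 1 (Ghrl; 6.04% of all genes), and the groups were separate in either direction for 12.6% of all genes. The median log2 difference was 0.23. The median over all genes was between -0.00 and 0.01 in the 3 comparisons. The single heterozygotes differ in the Sox9 allele, the Pdx1 allele and the transgene together, and these cannot be told apart between them.

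**Figure D3:**
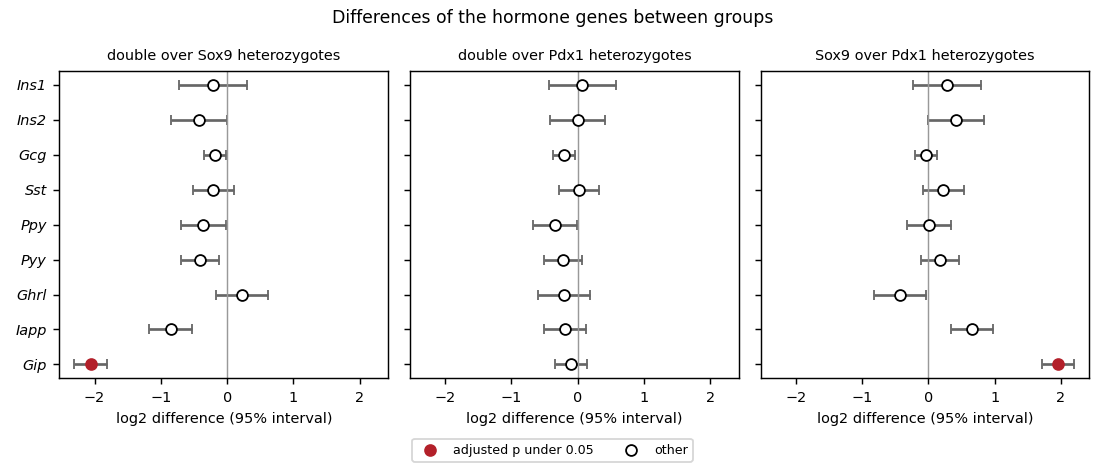
Log2 differences of the 9 hormone genes in the 3 comparisons, with 95% intervals from the limma fit; filled points have an adjusted p under 0.05. Only Gip is filled, at -2.06 in double over Sox9 and at 1.96 in Sox9 over Pdx1 heterozygotes, and of the other intervals only that of Iapp in double over Sox9 heterozygotes, down to -1.17, reaches beyond 1 log2 unit from 0.

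Within the double heterozygotes, replicate 2 had the lowest value of the 3 for all 9 hormone genes, while it was lowest for 28.8% of all genes. Its median log2 distance to the mean of the other two was -0.45 over the 9 genes and 0.01 over all genes. It was also the lowest of the 3 for 8 of 11 granule protein genes, 14 of 23 endocrine transcription factor genes and 4 of 10 prohormone processing genes. Without this sample the Ins1 log2 difference of double over Sox9 heterozygotes was 0.02 and the Ghrl difference of double over Pdx1 heterozygotes 0.01, both with the opposite sign to the full fit. Gip differed without it by -1.98 (limma, adjusted p = 0.00116). By correlation over all genes double-heterozygote replicate 3 stood apart, with a mean Pearson r to the other arrays of 0.988, where the other 8 ranged from 0.991 to 0.994. Without it, the number of hormone genes that passed was 1, 0 and 1 in the 3 comparisons, as with it.

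The genes with the pattern most like each hormone gene were found by the Pearson correlation of log2 levels over the 9 samples. For Gip these were Chst2, a sulfotransferase gene (r = 0.978), Adra2a, an adrenergic receptor gene (r = 0.961), and Cdkl1, a kinase gene (r = 0.955). Adra2a had 2241, 1773 and 1522 in the Sox9 heterozygotes, 635, 524 and 584 in the Pdx1 heterozygotes, and 652, 704 and 439 in the double heterozygotes. It was higher in all 3 Sox9 heterozygous samples than in the other 6. In the double against the Sox9 heterozygotes it fell, with a log2 difference of -1.64 (limma, adjusted p = 0.0178). Cdkl1 fell by 0.76 and Chst2 by 0.51 in that comparison (limma, adjusted p = 0.0178 and 0.0455). These 3 genes were picked for following Gip over the same samples, so their likeness to it is no separate support.

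For Iapp the closest were Npy, the neuropeptide Y gene (r = 0.949), Abcc8, the sulfonylurea receptor subunit of the beta-cell potassium channel (r = 0.940), and Vps37a, an endosomal sorting gene (r = 0.930). Abcc8 was also among the 3 closest to Ins2 (r = 0.869), after Ins1. Abcc8 had intensities of 8454, 9127 and 10159 in the Sox9 heterozygotes, 7024, 6636 and 6785 in the Pdx1 heterozygotes, and 7135, 5993 and 7222 in the double heterozygotes. Its values in the Sox9 heterozygotes lay above those of the other 6 samples, a split that its choice by correlation with Iapp favours. The log2 difference of double over Sox9 heterozygotes was -0.45 and did not pass (limma, adjusted p = 0.0912). The leading gene was Gal, the galanin gene, for Ins1 (r = 0.936), Snx10 for Ghrl (r = 0.955), Atf1 for Pyy (r = 0.959), Prxl2b for Ppy (r = 0.958), Hcrtr1 for Sst (r = 0.932) and Nfatc2 for Gcg (r = 0.970). With 18541 genes and 9 samples, high correlations arise among unrelated genes as well.

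**Figure D4:**
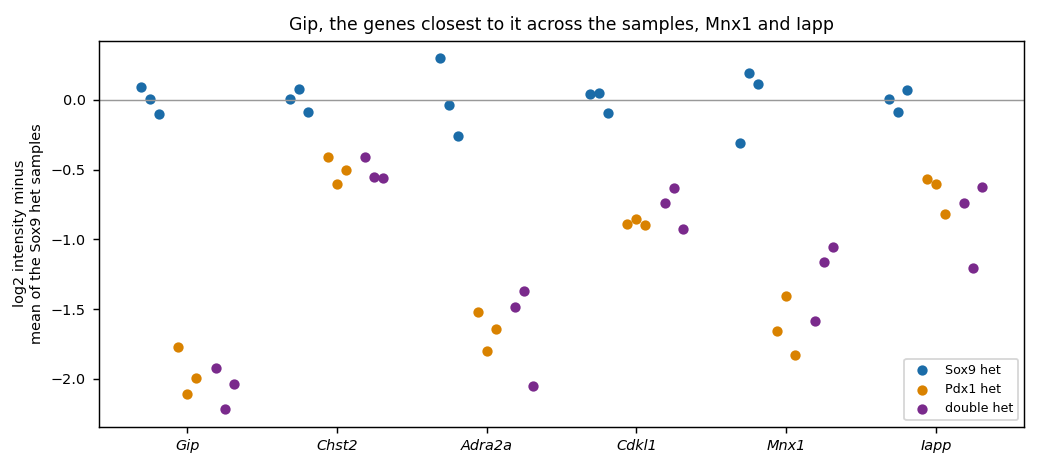
Log2 intensity of Gip, the 3 genes closest to it over the samples, Mnx1 and Iapp, relative to the mean of the 3 Sox9 heterozygous samples; each point is 1 sample. In all 6 genes the Pdx1 and double heterozygous samples lie below the Sox9 heterozygous ones, furthest for Gip. Chst2, Adra2a and Cdkl1 were picked for following Gip over these samples.

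Of the genes around the hormones, those of the endocrine transcription factors gave 1 call. Mnx1, a homeodomain factor of the dorsal pancreatic bud and of beta cells, had 607, 860 and 813 in the Sox9 heterozygotes, 238, 284 and 212 in the Pdx1 heterozygotes, and 250, 336 and 362 in the double heterozygotes. It fell in the double against the Sox9 heterozygotes, with a log2 difference of -1.27 (limma, adjusted p = 0.0294), and was higher by 1.63 in the Sox9 than in the Pdx1 heterozygotes (limma, adjusted p = 0.0125). No other of the 23 measured genes of that list passed in any of the 3 comparisons. Neurog3 had 684, 413 and 439 in the Sox9 heterozygotes, 612, 673 and 732 in the Pdx1 heterozygotes, and 573, 412 and 255 in the double heterozygotes, with the double heterozygotes below the Pdx1 heterozygotes without overlap.

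The manipulated factors were measured in the same samples. Pdx1 stood at 1316, 1573 and 1502 in the Sox9 heterozygotes, 1132, 1098 and 1080 in the Pdx1 heterozygotes, and 1203, 1143 and 1352 in the double heterozygotes, so that the Sox9 heterozygotes lay above the Pdx1 heterozygotes without overlap (log2 difference 0.40; limma, adjusted p = 0.217). Sox9 stood at 294, 294 and 325 in the Sox9 heterozygotes, 239, 198 and 234 in the Pdx1 heterozygotes, and 292, 328 and 381 in the double heterozygotes. It was thus lowest in the group whose label names no Sox9 deletion. The sources used here do not say which exons the Sox9 and Pdx1 probes bind, so these values do not check the labels, and groups are named as labelled.

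None of the 10 prohormone processing genes passed in limma in any comparison, and in double over Sox9 heterozygotes their median log2 difference was -0.12. Pcsk1 and Pcsk2, the convertases that cut prohormones, had log2 differences of -0.25 and -0.18 there (limma, adjusted p = 0.265 and 0.335). None of the 11 granule protein genes passed, with a median of -0.03 and Chga, the chromogranin A gene, at -0.26 (limma, adjusted p = 0.236). None of 15 other gut and neural peptide genes passed, with a median of -0.09. The groups did not overlap for 4 of these 15, all lower in the double heterozygotes, where 16.7% of all genes were lower and 35.3% separate in either direction: secretin (Sct) at -0.45, Npy at -0.42, calcitonin (Calca) at -0.47 and Insl5 at -0.21. None of 17 hormone receptor genes passed, and the glucagon receptor gene Gcgr was furthest from 0 at -0.68 (limma, adjusted p = 0.0901), while the Gip receptor gene Gipr stood at -0.21. At an unadjusted p under 0.05 in that comparison were 2 prohormone processing genes, 1 granule protein gene, 3 other peptide genes and 3 receptor genes, against 27.4% of all genes. By the FDR that the authors deposited 2, 3, 4 and 2 genes of these lists were called, against 23.1% of all genes. Taken in either direction, these counts are near or below the share over all genes. Of the authors' calls 2, 2, 4 and 1 were lower, against 11.1% of all genes, and 0, 1, 0 and 1 higher, against 12%.

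**Figure D5:**
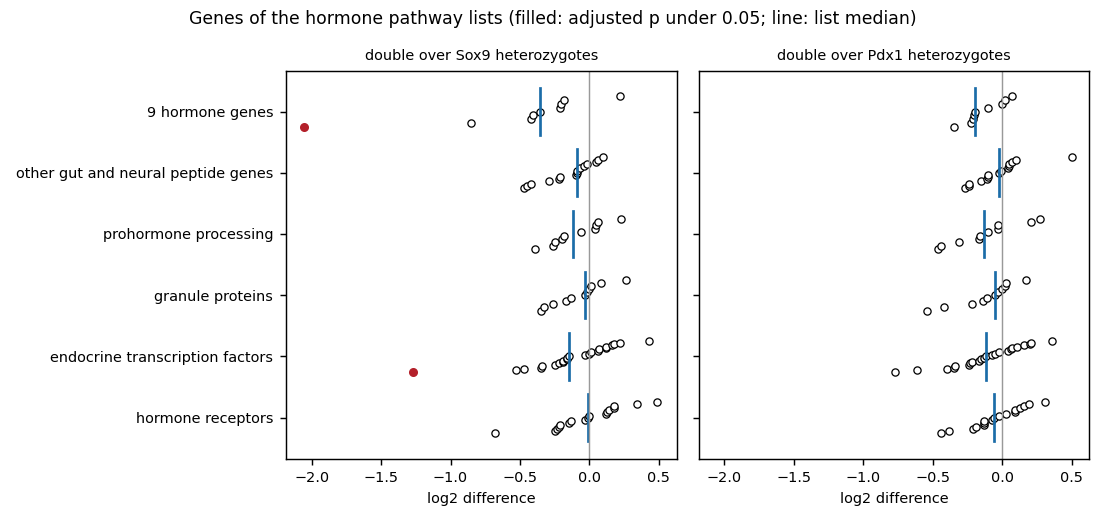
Log2 differences of the hormone genes and of 5 lists of genes around them, in double over Sox9 (left) and double over Pdx1 heterozygotes (right); each point is a gene, filled where the adjusted p is under 0.05, and the line is the list's median. Gip at -2.06 and Mnx1 at -1.27 on the left are the filled points, and the right panel has none.

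The samples carried the markers of pancreatic epithelium. The probes of Cdh1, Epcam, Krt8, Krt18 and Foxa2 stood at or above percentile 93.5 of every array, and Pdx1 at or above 69.1. Markers of gut were set beside Gip, whose usual source is the intestine. In the Sox9 heterozygotes, where Gip was high, Cdx2, the factor that defines intestinal epithelium, had intensities of 72, 77 and 67, at percentile 0.8 to 5.2, against 75, 76 and 94 in the Pdx1 and 85, 216 and 465 in the double heterozygotes. Fabp1, a fatty acid binding protein gene of enterocytes, had 151, 123 and 153 in the Sox9, 83, 92 and 98 in the Pdx1 and 185, 133 and 125 in the double heterozygotes. It was thus higher without overlap in the Sox9 than in the Pdx1 heterozygotes, as Gip was (log2 difference 0.64; limma, adjusted p = 0.252), but overlapped between the Sox9 and the double heterozygotes, where Gip did not. Isx, an intestinal homeobox gene, was also higher without overlap in the Sox9 than in the Pdx1 heterozygotes (log2 difference 0.51; limma, adjusted p = 0.866), and Muc2 and Krt20 were lower without overlap (-0.25 and -0.88). The summed intensity of 8 intestinal markers was 1725 to 2078 in the Sox9, 1774 to 1929 in the Pdx1 and 2073 to 2741 in the double heterozygotes, and 0 of the 8 passed in limma in any comparison. By the authors' FDR 2 of the 8 were higher in double over Sox9 heterozygotes (12% of all genes). In double over Pdx1 heterozygotes 3 were higher (8.31% of all genes), and 0 were lower in either comparison. Without overlap 2 and 3 were higher (18.6% and 11.6% of all genes). The 2 against the Sox9 heterozygotes were Cdx2 and Krt20, with log2 differences of 1.51 and 1.0 (limma, adjusted p = 0.115 and 0.103). The part of intestinal cells in the Gip values was not tested. The summed intensity of 5 stomach markers was 2412 to 2917, 2966 to 3063 and 2872 to 3474 in the same order.

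Markers of neurons and neural crest, cells that also make peptides, were lower in the double heterozygotes without overlap of the sums. Their summed intensity was 3288 to 3652 in the Sox9, 2990 to 3575 in the Pdx1 and 2482 to 2647 in the double heterozygotes. Of the 11 markers 0 passed in limma, 10 had a log2 difference below 0 against the Sox9 heterozygotes, and for 5 these groups did not overlap, with the double heterozygotes lower, against 16.7% of all genes. At an unadjusted p under 0.05 in that comparison were 8 of the 11, against 27.4% of all genes. Against the Pdx1 heterozygotes 11 of the 11 were below 0, 5 were lower without overlap and 6 were at an unadjusted p under 0.05, where 11.4% and 16.1% of all genes were. The part of these cells in the hormone values was not tested. Summed markers of mesenchyme, endothelium, white blood cells and erythroid cells overlapped between all 3 groups, and none of their genes passed in limma.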

How the data were processed

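Transcript levels were measured in 9 samples on 1-colour Agilent arrays with Cy3-labelled RNA, per the labels' protocols. The values are the intensities that the authors deposited for each sample, rounded to whole numbers, with medians of 347 to 353 in all 9 samples. How background was corrected, arrays normalized and 1 probe per gene chosen is not stated in the labels used here. The submitters' processing notes name limma. For the 2 comparisons of the double heterozygotes the authors also deposited log2 ratios and an FDR, per the file headers, and the latter was taken for an adjusted p-value. In that file, 9 columns are named by array barcode, which no label ties to a sample, and they were not used, so slides could not be tested as batches.

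Intensities were taken to log2 and fitted with limma 3.58.1 in R 4.3.3 (lmFit and eBayes) over all 18541 genes and all 9 samples with a mean for each group, and p-values were adjusted by Benjamini-Hochberg over all genes in each comparison. A gene passed where the adjusted p lay under 0.05, and only then is it said to have risen or fallen. Intervals are at the 95% level. The fit was tested on simulated data. Precision is limited by the 3 arrays in each group, and no fold between different probes was taken. Percentiles give a probe's place among all probes of its array, which also depends on how well each probe binds, and marker sums are led by their brightest probes. Lists were matched by symbol or, for older symbols, through the Entrez number to RefSeq, which covered 17183 genes. The named genes were the 9 hormone genes, the 3 genes with the highest correlation to each, and up to 4 members of each list that passed. Other list members are named for their roles or after their values were seen. The members and lists were chosen with earlier results of these data known. Alternatives were quantile normalization, median centring, a filter on dim probes, fits of 2 groups, an intensity trend, a replicate block, a 1.5-fold minimum, the authors' FDR and leaving out each sample.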

Additional observations from a re-analysis of the deposited data

How the results depend on the processing

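Gip kept its direction and passed in both comparisons with the Sox9 heterozygotes under all alternatives run, with adjusted p from 2.51e-10 (the authors' FDR) to 0.00397. For the hormone genes, the count that passed in double over Sox9 heterozygotes (1) was 2 with dim probes left out, 5 by the authors' FDR and 1 to 2 when each sample was left out in turn. In double over Pdx1 heterozygotes (0) it was 1 by the authors' FDR and 0 to 0 when samples were left out. In Sox9 over Pdx1 heterozygotes (1) it was 2 in the fit of only those 2 groups and 1 to 2 when samples were left out. The added gene of the limma fits was Iapp, which in Sox9 over Pdx1 heterozygotes also passed without double-heterozygote replicate 2 (adjusted p = 0.0331). Over all genes, 57 passed in double over Sox9 heterozygotes, 3 in the fit of 2 groups, 4292 by the authors' FDR and 4 to 68 when samples were left out. In double over Pdx1 heterozygotes 20 passed, 39 with dim probes left out, 2 in the fit of 2 groups, 3199 by the authors' FDR and 1 to 9 when samples were left out. In Sox9 over Pdx1 heterozygotes 43 passed, 18 with the replicate block and 4 to 71 when samples were left out. The cause of these shifts was not tested, beyond the fewer samples or genes that some settings hold. The Sst log2 difference of double over Pdx1 heterozygotes turned from 0.018 to -0.007 with quantile normalization. When samples were left out, signs turned for differences near 0: in double over Pdx1 heterozygotes Ins1 (-0.146 to 0.298), Ins2 (-0.173 to 0.171), Sst (-0.044 to 0.084) and Ghrl (-0.377 to 0.011), in double over Sox9 heterozygotes Ins1 (-0.337 to 0.019), and in Sox9 over Pdx1 heterozygotes Gcg (-0.073 to 0.023) and Ppy (-0.097 to 0.093). Same-numbered samples of different groups correlated in their deviations from the group means at -0.18 to 0.24. Differently numbered samples were not compared, so these values do not settle whether the titles' numbers pair the samples. The replicate block changed no call of a hormone gene. The block by slide was not run because no label ties a slide to a sample.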
